A study of Mus musculus with 10 samples.

Results

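The genes described here, 10 in number, serve protein folding and stress in the endoplasmic reticulum (ER), the compartment in which secreted proteins are folded, and were followed in aneurysmal and control mouse aorta. They were the chaperones and co-chaperones Hspa5, Hsp90b1, Pdia4, Calr, Sdf2l1 and Dnajb9, the degradation factor Herpud1, and the transcription factors Xbp1, Atf4 and Ddit3. A gene was taken in when its name on the array equalled one of these symbols, which found all 10, out of 35527 gene names. All 10 were tested, among 22520 names with an aortic signal above background on 5 or more of 10 arrays, and the probe that represents each was above background on all 10 arrays.

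Male C57BL/6J mice aged 10 weeks were infused through the clamped infrarenal aorta for 5 min at 100 mmHg. The PPE group (n = 5) received type I porcine pancreatic elastase at 1.5 U per mL in saline, an elastin-digesting enzyme whose infusion leads to an abdominal aortic aneurysm, and the sham group (n = 5) received saline. Both groups had the same surgery, and the infused segment was taken at day 7. Each array compared unpooled RNA of 1 aorta, in red, with a universal mouse reference RNA, in green, so every value is a log2 ratio of aorta over reference. After normalization, a value of 0 marks the trend of the array for spots of like brightness, not equal raw signal in both. Values of different probes cannot be ranked against each other. RNA of the whole aortic wall was measured, so fewer cells of a type and less RNA per cell cannot be told apart.

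Secreted and membrane proteins enter the ER through a translocon and are folded there by chaperones such as BiP (encoded by Hspa5), by disulfide isomerases and by lectin chaperones. When unfolded proteins accumulate, the sensors Ire1, Perk and Atf6 start the unfolded protein response (UPR). Ire1 splices Xbp1 mRNA, Atf6 and spliced Xbp1 raise chaperone genes, and Perk acts through translation of Atf4, which induces Ddit3 (Chop), a factor known for its role in cell death under prolonged stress. Cells that secrete much protein, such as matrix-forming fibroblasts and plasma cells, are known for high chaperone levels.

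In PPE, 3 chaperone genes rose and 3 other genes of the set fell. At a limma adjusted p under 0.01, Sdf2l1, Hspa5 and Calr were called higher, while Herpud1, Ddit3 and Dnajb9 were called lower, although no gene of the set was called when arrays were centred on their medians in place of loess normalization. Over all names tested, 23.8% were called, 13.9% higher and 9.96% lower, against 6 of the 10 genes here (60%, with 30% in each direction). Hsp90b1, Pdia4 and Xbp1 had positive log2 fold changes that did not pass the threshold, and that of Atf4 was close to 0. The values of the 5 PPE and the 5 sham arrays did not overlap for the 6 called genes, as for 25.5% of all names, and overlapped for the other 4. The median log2 fold change was 0.43 over the 10 genes and 0.021 over all names.

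**Figure D1:**
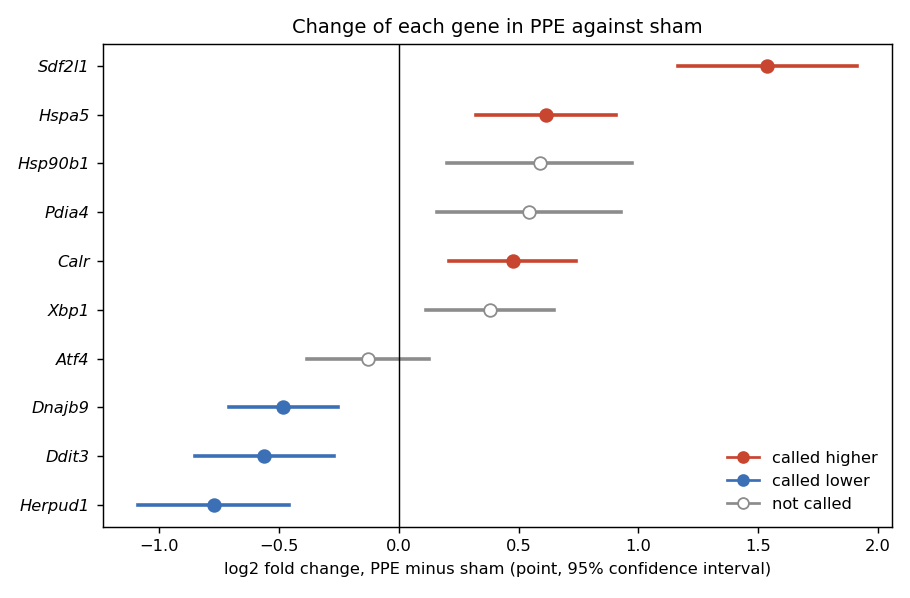
Log2 fold change (PPE minus sham, x axis) of each of the 10 genes (y axis), with its 95% confidence interval from limma over 5 arrays in each group. Red and blue points passed an adjusted p under 0.01, and open points did not. Sdf2l1 lay at 1.54, apart from the other genes, and Herpud1 was lowest at -0.77. With median centring in place of loess no gene was called, and Atf4, Dnajb9 and Ddit3 had values above 0.

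Chaperone genes of the UPR are known for the ER stress response element (ERSE), a CCAAT box and the letters CCACG with 9 bases of any kind between them. The promoters of the 10 genes (250 bases before to 50 bases after the start, RefSeq sequence on GRCm38.p6) were searched on both strands for these half-sites at this spacing. Exact matches were in 3 of 10 of them, those of Hspa5, Hsp90b1 and Calr, and in 39 of 32851 promoters in all (0.119%). These windows are shown because their genes are chaperones with positive fold changes, with the element in capitals and the gene's own strand read 5′ to 3′.
Hspa5, chr2:34772020-34772049, + strand: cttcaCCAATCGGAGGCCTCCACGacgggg
Hsp90b1, upstream element, chr10:86705632-86705661, - strand: caagcCCAATCGCAAGGAGCCACGcttcgg
Hsp90b1, downstream element, in antisense, chr10:86705527-86705556, - strand: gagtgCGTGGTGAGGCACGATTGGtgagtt
Calr, in antisense, chr8:84847069-84847098, - strand: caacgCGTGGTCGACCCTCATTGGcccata
Counted from the start site, the elements began at -65 in Hspa5, at -212 and -107 in Hsp90b1 and at -162 in Calr.

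Herpud1 was the member with the other element, ERSE-II, in which ATTGG and CCACG stand 1 base apart and which 12 of 32851 promoters held (0.0365%). It also held the core of the C/EBP-ATF element through which Atf4 acts, TGATGNAA, found in 3.97% of all promoters. Both are shown because Herpud1, which was called lower, held both.
Herpud1, ERSE-II, chr8:94386368-94386397, + strand: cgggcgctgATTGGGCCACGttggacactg
Herpud1, C/EBP-ATF core in antisense, chr8:94386306-94386335, + strand: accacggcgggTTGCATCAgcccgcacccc
None of the 10 windows held TGACGTGG, the core of the element bound by spliced Xbp1 (0.676% of all promoters). The windows of Pdia4, Sdf2l1, Dnajb9, Xbp1, Atf4 and Ddit3 held none of the full elements. A match is a description of the sequence, not a measured binding site, and its absence says only that these letters are not in this window.

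Sdf2l1 encodes a luminal protein found in complexes with BiP and showed the largest change of the 10 genes. Its probe lies at chr16:17130426-17130485 (mm9, - strand). The log2 ratios were -2.42, -2.27, -2.06, -2.30 and -1.86 on sham arrays 1 to 5, and -0.21, -0.79, -0.80, -0.40 and -1.04 on PPE arrays 1 to 5. All PPE arrays stood above all sham arrays, the lowest PPE value being -1.04 and the highest sham value -1.86. The means were -2.18 ± 0.22 (SD, n = 5) in sham and -0.65 ± 0.33 in PPE, a 2.90-fold increase (log2 fold change 1.54, SE 0.17, limma adjusted p = 3.85e-05). The call held under 23 of 24 alternatives, the exception being median centring (adjusted p = 0.0487 in limma). Within slide 1 and slide 2, the slides that held both groups, the log2 fold changes were 1.92 and 1.57. Slide 1 held sham 1, PPE 1 and PPE 2, and slide 2 held sham 2, sham 3, PPE 3 and PPE 4. Here and below, values within slide 1 thus rest on sham 1 as the only sham array.

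Hspa5 encodes BiP, the Hsp70 of the ER lumen, and its probe lies at chr2:34631913-34631972 (mm9, + strand). It read -0.33, -0.33, -0.30, -0.93 and -0.51 on sham arrays 1 to 5, and 0.06, 0.04, 0.23, 0.28 and 0.07 on PPE arrays 1 to 5. On this scale every sham value was below 0 and every PPE value slightly above it, with sham 4 lowest. That side of 0 depends on the normalization, since with median centring the means were -2.41 in sham and -0.95 in PPE. Hspa5 rose 1.53-fold, from a mean of -0.48 ± 0.26 (SD, n = 5) to 0.13 ± 0.11 (log2 fold change 0.61, SE 0.13, limma adjusted p = 0.00378). Without PPE 3 or without PPE 4 it missed the threshold, with adjusted p = 0.012 and 0.0121 in limma, at log2 fold changes of 0.59 and 0.58. Its log2 fold changes within slides 1 and 2 were 0.38 and 0.57.

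Calr encodes calreticulin, a lectin chaperone of glycoproteins and a calcium store of the ER (probe at chr8:87366192-87366251, mm9, - strand). Sham arrays 1 to 5 gave -0.06, -0.08, -0.03, -0.26 and -0.18, and PPE arrays 1 to 5 gave 0.56, 0.26, 0.39, 0.54 and 0.02. The groups did not overlap, but PPE 5 lay just above the highest sham array. Calr rose 1.39-fold (log2 fold change 0.48, SE 0.12, limma adjusted p = 0.0096). This call stood close to the threshold: it was lost under 15 of 24 alternatives, among them leaving out any array other than PPE 5, and the adjusted p in limma was 0.0118 with slide as a block. The log2 fold change ranged from 0.42 to 1.24 over the 24 alternatives, and was 0.47 within slide 1 and 0.52 within slide 2.

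Hsp90b1 encodes Grp94, the Hsp90 of the ER lumen (probe at chr10:86153770-86153829, mm9, - strand). The log2 ratios were -0.55, -0.70, -0.49, -1.19 and -0.66 on sham arrays 1 to 5, and -0.31, -0.13, 0.19, 0.14 and -0.55 on PPE arrays 1 to 5. PPE 5 fell among the sham values, and the other 4 PPE arrays stood above them. Its log2 fold change of 0.59 did not pass (SE 0.18, limma adjusted p = 0.022), with a 95% confidence interval of 0.20 to 0.97. Leaving out PPE 5 gave 0.69 and a limma adjusted p of 0.00705.

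Pdia4 encodes Erp72, a protein disulfide isomerase of the ER (probe at chr6:47746516-47746575, mm9, - strand). Its values were -1.39, -1.20, -1.31, -1.50 and -0.88 on sham arrays 1 to 5, and -0.67, -1.29, -0.39, -0.63 and -0.59 on PPE arrays 1 to 5. The PPE 2 array read as low as the sham arrays. At a limma adjusted p of 0.031 the log2 fold change, 0.54 with an SE of 0.17, did not pass, although without PPE 2 it was 0.69 and did. With slide as a random block, Hsp90b1 and Pdia4 both passed (limma adjusted p = 0.00553 and 0.00907).

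Dnajb9 encodes ERdj4, a J-domain partner of BiP and a textbook target of spliced Xbp1, and it was the chaperone gene of the set that fell. Its brighter probe lies at chr12:45307313-45307372 (mm9, - strand). The log2 ratios were 1.09, 1.15, 1.18, 1.07 and 0.86 on sham arrays 1 to 5, and 0.66, 0.54, 0.38, 0.66 and 0.69 on PPE arrays 1 to 5. All PPE arrays were below all sham arrays. Dnajb9 fell by 0.48 on the log2 scale (SE 0.10, limma adjusted p = 0.00347), but was 0.13 higher, and not called, with median centring. A dimmer probe at chr12:45308272-45308331, above background on 8 of 10 arrays, overlapped between the groups and gave -0.18 (limma adjusted p = 0.466), so the decrease rests on the brighter probe.

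**Figure D2:**
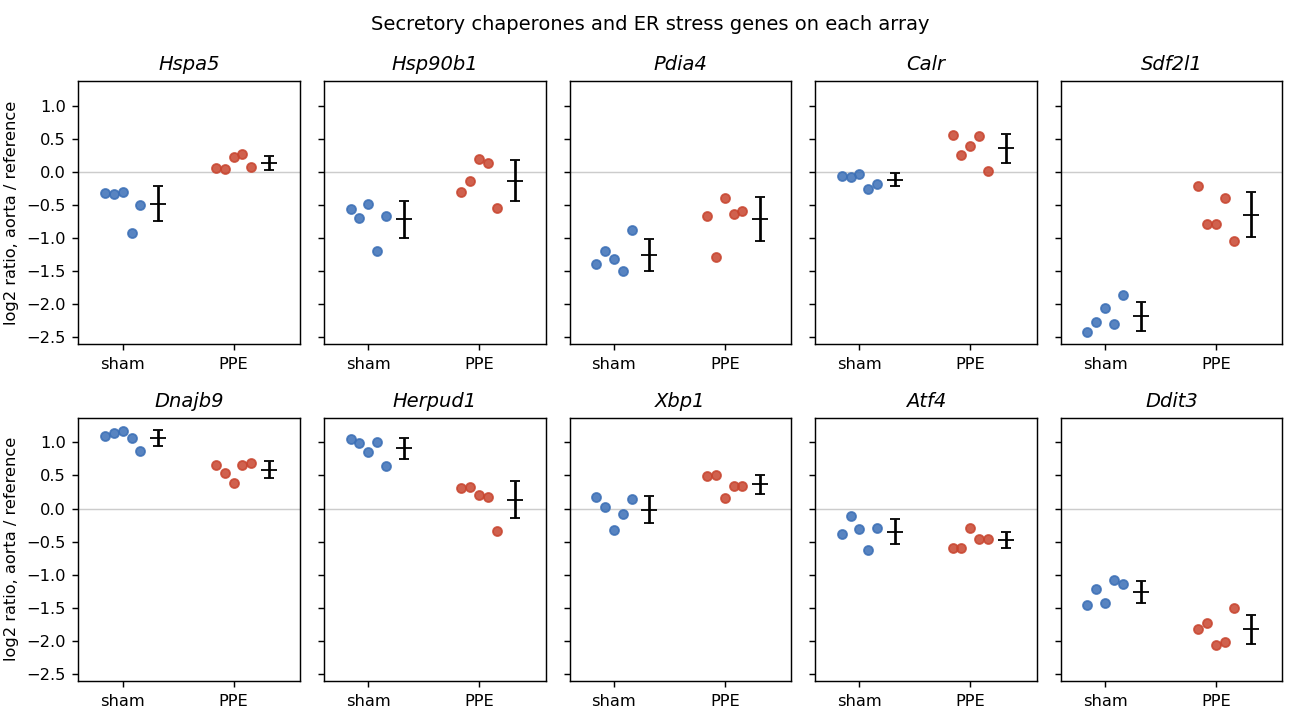
Log2 ratio of aorta over reference (y axis) on each of the 5 sham and 5 PPE arrays (x axis, replicates 1 to 5 from left to right) for each of the 10 genes, with the group mean and SD in black. The groups did not overlap for Hspa5, Calr, Sdf2l1, Dnajb9, Herpud1 and Ddit3, and PPE 5 stood apart from the other PPE arrays for Herpud1. Heights are comparable between groups of a panel and not between panels.

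Herpud1 encodes Herp, a membrane protein of ER-associated degradation, the route by which misfolded proteins leave the ER. Its probe lies at chr8:96919117-96919176 (mm9, + strand). It read 1.05, 0.99, 0.86, 1.0 and 0.65 on sham arrays 1 to 5, and 0.31, 0.33, 0.20, 0.17 and -0.34 on PPE arrays 1 to 5. Each PPE array was below each sham array, and PPE 5 was far below the other PPE arrays. Herpud1 fell by 0.77 on the log2 scale (SE 0.14, limma adjusted p = 0.0014), and by 0.65 without PPE 5 (limma adjusted p = 0.000881). The call held under 23 of 24 alternatives, with median centring, where it was -0.049, as the exception.

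Xbp1 encodes the factor whose mRNA Ire1 splices, and its probe at chr11:5425816-5425875 (mm9, + strand) gives 1 value for the gene, so spliced and unspliced mRNA cannot be told apart. Sham arrays 1 to 5 gave 0.18, 0.02, -0.33, -0.09 and 0.14, and PPE arrays 1 to 5 gave 0.49, 0.50, 0.16, 0.34 and 0.34. PPE 3 lay below the highest sham array, and the other PPE arrays lay above all of sham. The log2 fold change of 0.38 (95% confidence interval 0.11 to 0.65) had an SE of 0.12 and a limma adjusted p of 0.0308, and passed under none of the 24 alternatives, in which it kept its direction.

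Atf4 is controlled above all through translation, so its mRNA need not follow its protein. Its brighter probe (chr15:80087902-80087961, mm9, + strand) read -0.38, -0.12, -0.31, -0.63 and -0.30 on sham arrays 1 to 5, and -0.60, -0.59, -0.29, -0.45 and -0.46 on PPE arrays 1 to 5. The PPE values lay wholly within the sham range. The groups differed by -0.13 on the log2 scale (95% confidence interval -0.38 to 0.12, SE 0.12, limma adjusted p = 0.434), and by 0.79 with median centring. A dimmer probe (chr15:80086639-80086698) gave -0.069.

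Ddit3 encodes Chop, which Atf4 induces. The positions of its probe span 304 bases of the genome (chr10:126732518-126732821, mm9, + strand), against 60 bases for each of the other probes of the set. The log2 ratios were -1.45, -1.22, -1.43, -1.07 and -1.14 on sham arrays 1 to 5, and -1.82, -1.73, -2.06, -2.01 and -1.51 on PPE arrays 1 to 5. All 5 PPE arrays were below all 5 sham arrays. Ddit3 fell by 0.56 on the log2 scale, a 1.48-fold decrease (SE 0.13, limma adjusted p = 0.00604), but was 0.056 higher with median centring. The call was lost without any of sham 2, sham 4, sham 5, PPE 1, PPE 3 or PPE 4 (highest limma adjusted p 0.0184, log2 fold changes from -0.64 to -0.50 over all arrays left out) and with slide as a fixed block (limma adjusted p = 0.0107). Within slides 1 and 2 the log2 fold changes were -0.32 and -0.71.

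The chaperones were then set directly against Ddit3 and Atf4. On each array the log2 ratio of the factor was subtracted from that of the chaperone, and the 12 differences were compared between PPE and sham by an exact two-sided permutation test. With 5 arrays in each group, the smallest p that relabelling can give is 0.00794. The 12 differences share the arrays and the values of 2 factors, so they are not independent.

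Hspa5, Hsp90b1, Pdia4, Calr and Sdf2l1 each rose against both factors. In all, 11 of 12 pairs passed an adjusted p of 0.05, among them Dnajb9 minus Atf4, which fell. The share of pairs of other names that would pass was not computed. Hspa5 minus Ddit3 was 1.13, 0.89, 1.12, 0.15 and 0.63 on sham arrays 1 to 5, and 1.88, 1.77, 2.28, 2.29 and 1.57 on PPE arrays 1 to 5. The groups did not overlap, and the difference between them was 1.18 (exact permutation p = 0.00794, 0.0106 after Benjamini-Hochberg adjustment). Against Ddit3, the differences were 2.10 for Sdf2l1, 1.15 for Hsp90b1, 1.10 for Pdia4 and 1.04 for Calr, each with an exact permutation p of 0.00794. For Hspa5, Sdf2l1 and Calr this p was fixed in advance, since each lay wholly higher in PPE and Ddit3 wholly lower. These pairs therefore add no support to the calls of the single genes. The change of Ddit3 itself, -0.56, is part of every difference against it, also for Hsp90b1 and Pdia4, which were not called alone. Hsp90b1 and Pdia4 overlapped between the groups on their own scale but not relative to Ddit3, where their lowest PPE values were 0.95 and 0.44 and their highest sham values 0.94 and 0.26.

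Against Atf4 the differences were smaller. Hspa5 minus Atf4 was 0.06, -0.21, 0.01, -0.30 and -0.21 on sham arrays 1 to 5, and 0.66, 0.63, 0.52, 0.73 and 0.53 on PPE arrays 1 to 5, a difference of 0.74 (exact permutation p = 0.00794). Sdf2l1 gave 1.67, Hsp90b1 0.72 and Calr 0.61 at the same exact p, and Pdia4 gave 0.67 with overlapping groups (exact permutation p = 0.0159, adjusted 0.0173). Dnajb9 went the other way against Atf4, by -0.35 (exact permutation p = 0.0159, adjusted 0.0173). This result was lost when the other probes of Dnajb9 and Atf4 were used together. Dnajb9 minus Ddit3 differed by 0.08 between the groups (exact permutation p = 0.579) and was the pair that did not pass.

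**Figure D3:**
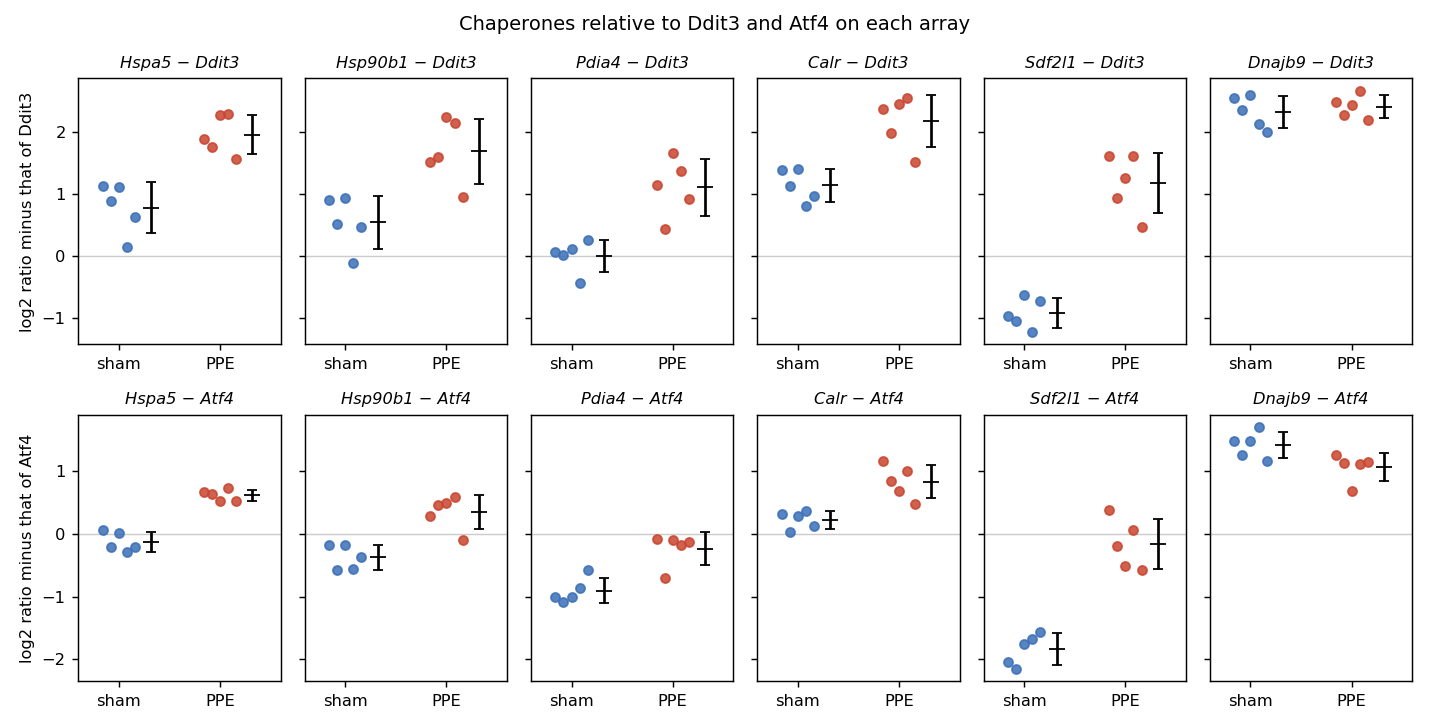
Log2 ratio of each of 6 chaperones minus that of Ddit3 (upper panels) or Atf4 (lower panels) on each array (y axis, log2 units) for 5 sham and 5 PPE arrays (x axis), with mean and SD in black. Relative to Ddit3, 5 chaperones sat higher on all PPE arrays than on all sham arrays, by 1.04 to 2.10 on average, and Dnajb9 overlapped. For Hspa5, Sdf2l1 and Calr this follows from their own separation and the opposite separation of Ddit3.

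Pair differences do not depend on a shift common to all probes of an array. Loess and median centring do not differ by such a shift, so pair differences can change between them. From loess to median centring, Ddit3 went from -0.56 to 0.056 and Atf4 from -0.13 to 0.79. The median of all names went from 0.021 to 0.41. With median centring 10 of 12 pairs passed, Pdia4 against Atf4 being lost, and leaving out 1 array kept 10 or 11. In slides 1 and 2, Hspa5 minus Ddit3 differed by 0.70 and 1.28 and Sdf2l1 minus Ddit3 by 2.24 and 2.28.

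The rest of the secretory pathway, the targets of Atf4 and Ddit3, and heat shock proteins outside the ER were described with 9 lists. They held 138 genes, of which 136 were tested. Of these, 27 were called higher and 15 lower in limma (against 13.9% and 9.96% of all names), with none called when arrays were centred on their medians. The increases lay mostly in genes of folding and of entry into the ER, and 9 of the 15 decreases were heat shock genes of the cytosol and mitochondria.

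Among 15 further ER chaperones and co-chaperones, 4 rose and 1 fell, beside 13.9% and 9.96% of all names. Their median log2 fold change was 0.23. Manf, a secreted ER stress factor (0.94, limma adjusted p = 0.00149), Dnajb11, a J-domain partner of BiP (0.86, limma adjusted p = 0.000283), Creld2 (0.50) and Sec63, a translocon J-domain protein (0.40), were higher. The call of Creld2 was lost under 9 of 24 alternatives, among them the slide as a fixed block (limma adjusted p = 0.0146). Sil1, the nucleotide exchange factor of BiP, was lower (-0.54, limma adjusted p = 0.00309), though 0.23 with median centring. Hyou1, an Hsp70 relative of the ER, and Canx, the membrane-bound partner of calreticulin, did not pass, at -0.18 (-0.28 to -0.080 on leaving out each array in turn) and -0.045.

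Of 14 disulfide isomerases and oxidases, 5 rose and 1 fell, beside 13.9% and 9.96% of all names in limma. Pdia5 (1.21), Erp29 (1.04), Pdia6 (0.80), Pdia3 (0.78) and P4hb (0.55), the isomerase that is also a subunit of collagen prolyl hydroxylase, were higher. Qsox1, a sulfhydryl oxidase, was lower (-0.75, and 0.014 with median centring). The call of P4hb was lost under 13 of 24 alternatives, among them the slide as a fixed block (0.69, limma adjusted p = 0.0132). That of Pdia6 was lost under 8, and that of Qsox1 under a further 6 besides median centring. The median of the list was 0.24.

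Genes of entry into the ER rose in part. Of 19 genes of the translocon, the signal peptidase and the oligosaccharyltransferase, which attaches sugars to new proteins, 17 had log2 fold changes above 0 (median 0.40). In limma 6 rose and none fell, beside 13.9% and 9.96% of all names. At an unadjusted p under 0.05, 13 were higher and 1 lower, beside 43.6% of all names tested that passed it in either direction (24.8% higher and 18.8% lower). SAM, a permutation-based test for arrays run as an alternative, called 7 and 0, beside 23.3% of all names (13.6% higher and 9.66% lower). Sec61b, a translocon subunit, rose most (1.11, limma adjusted p = 4.09e-05), followed by Spcs3 of the signal peptidase (0.70). As the mean over their probes, they gave 0.67 and 0.60. Ssr1, of the translocon-associated complex, gave 0.69 with its brightest probe and -0.032 as the mean over its probes. Of 16 genes of the COPII coat and of retrieval to the ER, 3 rose and none fell, beside 13.9% and 9.96% of all names. The 3 were the cargo and retrieval receptors Kdelr2 (0.84), Surf4 (0.71) and Lman1 (0.70), not subunits of the coat. At an unadjusted p under 0.05, 6 of the 16 were higher and 1 lower, beside 24.8% and 18.8% of all names. SAM called 3 and 0, beside 13.6% and 9.66%.

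Collagen folding and modification showed the highest median of the 9 lists, 0.50 over 12 genes. Of these, 5 were higher and 1 lower, beside 13.9% and 9.96% of all names. P4ha3, a prolyl hydroxylase subunit (1.82), Plod2, a lysyl hydroxylase (1.32), and Serpinh1, the collagen chaperone Hsp47 (1.10, limma adjusted p = 0.00118), rose, as did Plod3 (0.62) and Ppib (0.53). P4ha3 gave 0.92 with the red channel above background on all 10 arrays and 3.37 with the deposited LogRatio. Leprel1, a prolyl hydroxylase, fell (-1.07), but was above background on 3 of 5 PPE arrays, and its call was lost under 10 of 23 alternatives, with values from -3.08 with the deposited LogRatio to -0.81 with median centring.

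Of 17 genes of ER-associated degradation, none was called in limma in either direction (median 0.11, range -0.20 to 0.81), beside the fall of Herpud1. Of all names, 23.8% were called. At an unadjusted p under 0.05, 6 of them were higher and 0 lower, beside 24.8% and 18.8% of all names. SAM called 2 and 0, beside 13.6% and 9.66% of all names. Of 9 UPR sensors and transcription factors, 2 rose and none fell, beside 13.9% and 9.96% of all names. Those that rose were Creb3l1 (0.68), a factor of collagen-secreting cells, and Eif2ak3 (0.50), which encodes Perk. Atf6 (0.22) and Ern1 (0.22), which encodes Ire1, did not pass. On leaving out each array in turn, Atf6 ran from 0.11 to 0.36 and Ern1 from -0.010 to 0.33. The call of Eif2ak3 was lost under 12 of 24 alternatives, among them the slide as a fixed block (0.41, limma adjusted p = 0.0169). Among 15 tested targets of Atf4 and Ddit3, 2 rose and 3 fell, beside 13.9% and 9.96% of all names. Their median was -0.38, or 0.31 with median centring. The amino acid genes Psat1 (0.73) and Slc3a2 (0.65) were higher, though Psat1 gave 0.45 as the mean over its probes (limma adjusted p = 0.0774) and the call of Slc3a2 was lost under 9 of 24 alternatives. Vldlr, a lipoprotein receptor (-2.73), Nupr1, a stress-induced nuclear protein (-1.09), and Ppp1r15a, the phosphatase subunit Gadd34 (-0.50, and 0.19 with median centring), were lower. The call of Ppp1r15a was lost under a further 14 of 24 alternatives, among them the slide as a fixed block (limma adjusted p = 0.0228). Asns (-0.79, limma adjusted p = 0.012), Atf3 (-0.76), Trib3 (-0.38) and Chac1 (-0.063) did not pass. Asns was called lower under 5 alternatives, among them the slide as a random block (limma adjusted p = 0.00476), and Atf3 with the slide as a fixed block (-1.19, limma adjusted p = 0.006). Leaving out sham 5 gave -1.01 for Atf3 and -0.24 for Trib3.

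The heat shock proteins of the cytosol and mitochondria were listed as a chaperone group outside the ER. Of 19 tested, 9 fell and none rose, beside 9.96% and 13.9% of all names in limma. Their median was -0.68, or 0.032 with median centring. At an unadjusted p under 0.05, 0 were higher and 13 lower, beside 24.8% and 18.8% of all names. SAM called 0 and 8, beside 13.6% and 9.66% of all names. The small heat shock proteins Hspb6 (-2.09) and Hspb7 (-1.70), both abundant in muscle, and Hspa1a (-1.96, limma adjusted p = 0.00274), the inducible Hsp70, were lowest. Hspb7 gave -0.84 with the deposited LogRatio (limma adjusted p = 0.0416). Hspa1a has a near-identical copy, Hspa1b, so its value is uncertain as to which of them it measures. Dnajb1 did not pass (-0.54, and 0.23 with median centring), but was called lower with the slide as a fixed block (-0.71, limma adjusted p = 0.00787).

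**Figure D4:**
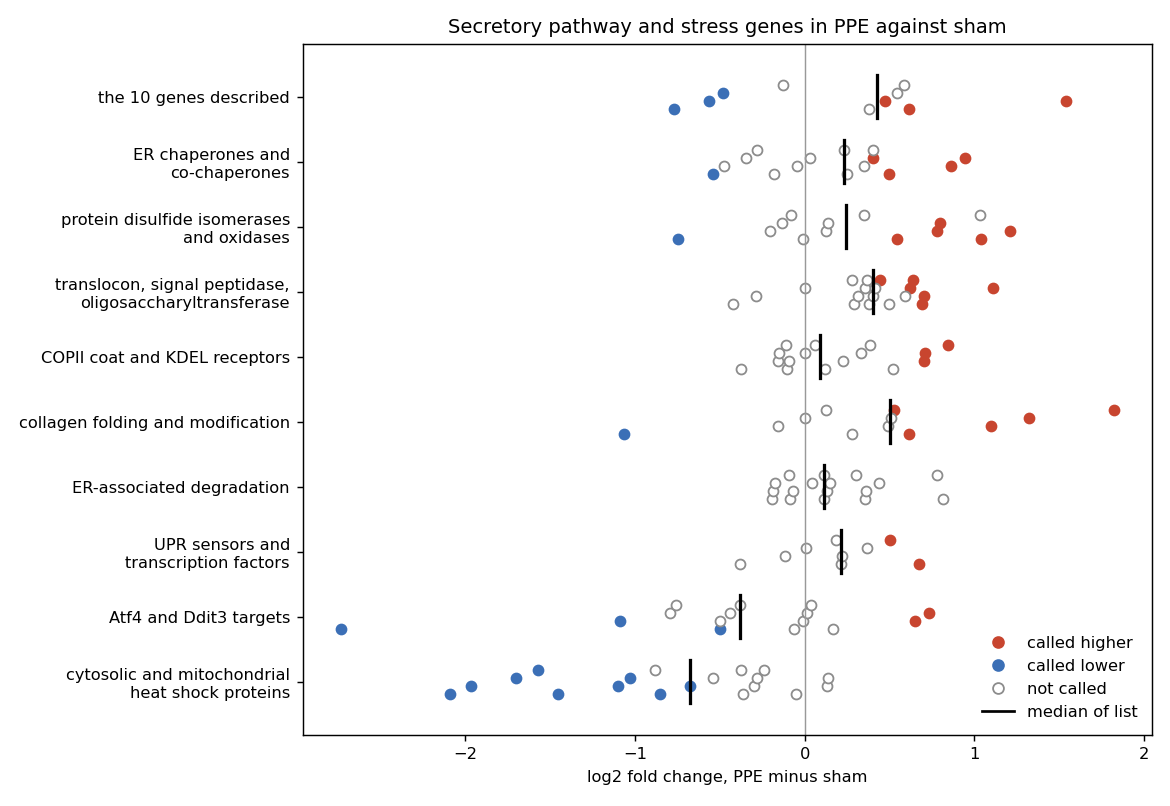
Log2 fold change (PPE minus sham, x axis) of each tested gene of the 10 genes described and of the 9 further lists (y axis). Filled points passed a limma adjusted p under 0.01, open points did not, and black bars are list medians. The medians run from 0.50 for collagen folding to -0.68 for heat shock proteins of the cytosol and mitochondria, the latter being 0.032 with median centring, under which no listed gene was called.

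The ERSE was also searched in these lists, where 122 of the 148 genes of the set and the lists had a promoter in the RefSeq table. Of these, 10 held an ERSE. In limma, 4 of them were called higher (Hspa5, Calr, Creld2 and Pdia6) and none lower, beside 13.9% and 9.96% of all names. Ero1lb (1.03, limma adjusted p = 0.0119), Derl3 (0.78, limma adjusted p = 0.0965), Hsp90b1 (0.59), Syvn1 (0.15), Canx (-0.045) and Dnajc3 (-0.48) did not pass. Of 11 tested genes with the core of the C/EBP-ATF element, 3 were called lower (Herpud1, Nupr1 and Vldlr) and none higher. Of all names, 9.96% were called lower and 13.9% higher. The targets of Atf4 and Ddit3 were listed for this response, and 8 of the 15 promoters searched held the core, among them that of Slc7a11, which was not tested.

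Marker mRNAs of other cell types differed between the groups. Beside the limma counts below, 13.9% of all names rose and 9.96% fell. All 8 macrophage markers rose (list means of log2 ratios 0.41 to 0.93 on sham and 2.77 to 3.85 on PPE arrays), as did 5 of 8 fibroblast markers (2.95 to 3.41 and 3.75 to 4.74), 4 of 6 neutrophil markers and 4 of 5 markers of dividing cells. Of the neutrophil markers that rose, Cxcr2 and Mpo were above background on 5 of 5 PPE but 1 of 5 sham arrays. These markers passed the filter through PPE, so their rise adds no support. Of 8 smooth muscle markers, 6 fell (3.23 to 4.22 on sham and 1.71 to 2.87 on PPE arrays). Of 8 plasma cell markers, Prdm1 (above background on 3 of 5 sham and 5 of 5 PPE arrays) and Sdc1 rose. Jchain (0.85, limma adjusted p = 0.0193), Derl3 (0.78), Pou2af1 (0.42), Mzb1 (0.30), Tnfrsf17 (-0.21) and Irf4 (-0.42) did not pass. At an unadjusted p under 0.05, 4 of the 8 were higher and 0 lower, beside 24.8% and 18.8% of all names. None of 5 B cell and none of 6 endothelial markers was called by limma or SAM (0 and 1 at an unadjusted p under 0.05). All 6 adipocyte markers had log2 fold changes below 0 and 1 was called lower, though 3 were above 0 with median centring. At an unadjusted p under 0.05, 0 of the 6 were higher and 4 lower, beside 24.8% and 18.8% of all names. The part of these shifts in the changes of the chaperones, of Herpud1, Dnajb9 and Ddit3 and of the heat shock proteins was not tested.

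The arrays lay on 5 slides, scanned on 2 days. Slides 1 and 2 held 3 and 4 arrays of both groups, and sham 4, sham 5 and PPE 5 were each alone on a slide. Red signal was above background on 37.6% of spots on sham 5, the lowest share, and 45.8% on PPE 5, against 49.5% to 65.8% on the others. Without these 2 arrays, Sdf2l1, Calr, Herpud1, Dnajb9 and Ddit3 were still called, and Hspa5 had a log2 fold change of 0.62 at a limma adjusted p of 0.0107.

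**Figure D5:**
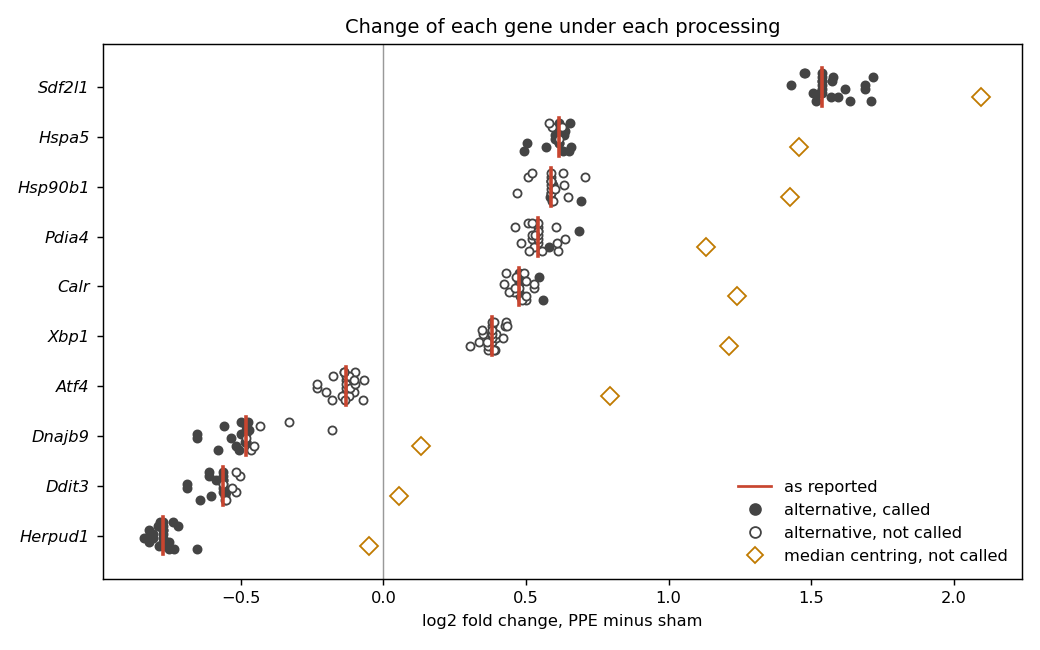
Log2 fold change (PPE minus sham, x axis) of each of the 10 genes (y axis) as reported (red bar) and under 24 alternatives, filled where limma or SAM called the gene. Sdf2l1 and Herpud1 were called under 23 of 24, Calr under 9 and Xbp1 and Atf4 under none. Median centring (diamonds) moved all genes upward by unequal amounts, with Atf4, Dnajb9 and Ddit3 past 0. The median of all names moved upward too.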

How the data were processed

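Agilent 2-colour arrays were hybridised with Cy5-labelled aortic RNA (500 ng, red) and Cy3-labelled universal mouse reference (green), without dye swaps. The authors extracted spots with Agilent Feature Extraction. Signal and local background of each spot were deposited as linear intensity values, and their ratio as log10 (LogRatio), while the authors' series matrix holds log2 ratios, equal to processed red over green on 100% of spots (tolerance 1e-04), with array medians from -0.16 to 0.12. Per the study's methods, arrays of poor quality had been removed by the authors.

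In R 4.3.3 with limma 3.58.1, mean signals were background-corrected (normexp, offset 50, which understates changes of dim probes) and normalised by loess, with control spots at weight 0. Spots marked as outliers (176 to 331 per array) were left out, no spot was saturated, and spots of a probe were averaged. A gene was represented by its brightest tested probe (red above background on at least 5 arrays). Groups came from the sample labels. The groups were compared by limma, unpaired and two-sided, with Benjamini-Hochberg adjustment over 22520 names and a threshold of 0.01, which called 3122 names higher and 2244 lower (408 and 8 with median centring). Pairs were compared by exact permutation tests, adjusted over 12. The number of arrays limits the precision.

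The genes, lists and motifs were chosen with earlier results of these data known. Named were the 10 genes, up to 3 called genes in each direction per list and a fixed set of known pathway genes. Sec63, Plod3 and Ppib were named after their values were seen, and genes with a promoter match by that match. Probe positions are those of the files on mm9, where exon and UTR annotation was not used here. Promoters of GRCm38.p6 came from RefSeq, and all 10 genes matched. The scripts were tested on simulated data. Alternatives covered normalisation, background, filters, probes, slide, scan day, replicate number, SAM (100 relabellings) and leaving out each array. The other probes of Atf4 and Dnajb9, and leaving out both dimmest arrays, were alternatives chosen after seeing the data.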

Additional observations from a re-analysis of the deposited data

Results flagged for a closer look

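Herpud1 was flagged because 1 PPE array lay far from the others: PPE 5 read -0.34 and the nearest PPE array 0.17, a gap of 0.768 of the range of the group, above Dixon's critical value of 0.71 for 5 samples. This was 1 of 22 groups examined, and chance flags about 1 in 20. Without PPE 5, Herpud1 fell by 0.65 on the log2 scale with a limma adjusted p of 0.000881.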

How the results depend on the processing

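With median centring in place of loess, the median of all names moved to 0.41, and 0 genes of the set and 0 genes of the lists were called higher or lower by limma. Relative to that median, Sdf2l1 stood at 1.69, Hspa5 at 1.05, Calr at 0.83, Atf4 at 0.39, Dnajb9 at -0.28, Ddit3 at -0.35 and Herpud1 at -0.46. Genes whose direction turned there included Atf4 (0.79), Ddit3 (0.056), Dnajb9 (0.13), Chac1 (0.56), Ppp1r15a (0.19), Trib3 (0.29), Canx (0.75), Hyou1 (0.11), Sil1 (0.23), Dnajb1 (0.23) and Qsox1 (0.014). Other list genes turned too. Genes above 0 went from 9 to 15 of 15 further ER chaperones, and from 11 to 17 of 17 degradation genes. Among 19 heat shock proteins they went from 2 to 10. The mean over probes turned Ssr1 (-0.032). Chac1 turned with slide as a fixed (0.20) or random block (0.051), with scan day as a block (0.035) and without sham 4, PPE 1 or PPE 3 (range -0.23 to 0.061 over arrays left out). Canx turned with scan day (0.0091) and without sham 2 (0.011), and Ern1 without PPE 5 (range -0.010 to 0.33). The cause of these turns was not tested. Slide as a random block called 5 genes of the set higher.

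Leaving out 1 array called 1 to 4 of the 10 genes higher and 1 to 3 lower, 18 to 33 list genes higher and 10 to 16 lower, and 10 to 11 pairs. Without PPE 3, Sdf2l1 was the gene called higher and Herpud1 the gene called lower. Without PPE 4, Sdf2l1 was the gene called higher, and without sham 2 Herpud1 was the gene called lower.

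Replicate numbers did not pair the arrays: deviations of arrays with the same number correlated at 0.29, -0.30, 0.16, -0.14 and 0.52 for numbers 1 to 5, and not every array correlated best with its own number. With the replicate block, 1 gene of the set was called higher (Sdf2l1) and 2 lower. By sign flips under this pairing 0 of 12 pairs passed, since the smallest p was 0.0625. SAM called the same 6 genes of the set as limma. The second probe of Dnajb9 was above background on 8 of 10 arrays.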
